A study of Homo sapiens with 6 samples.

Results

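The ATF4 pathway was examined through 10 genes, taken by symbol from the 27968 genes of the deposited tables. They are the transcription factors ATF4, ATF5, ATF3 and DDIT3, the pseudokinase TRIB3 and the glutathione-degrading enzyme CHAC1. The others are ASNS, PSAT1, MTHFD2 and CTH, enzymes of amino acid and one-carbon metabolism. The cells were H23, an established human lung adenocarcinoma line. They received either an siRNA that targets HOTAIR-N, named after the long non-coding RNA HOTAIR, or a control siRNA, and RNA was taken 48 hours after transfection. Each siRNA has 3 libraries, which the series' design text calls independent transfections, so that p-values measure the spread between transfections of 1 cell line. The labels do not say whether each siRNA was a single sequence or a pool, and all 6 cultures went through the same lipid transfection.

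ATF4 is the transcription factor at the end of the integrated stress response. Kinases that sense amino acid shortage, misfolded protein in the endoplasmic reticulum, viral RNA or lack of heme phosphorylate the translation factor eIF2, which lowers general protein synthesis while short reading frames in the ATF4 leader let ATF4 itself be translated. ATF4 then pairs with other bZIP factors and binds C/EBP-ATF response elements in genes of amino acid synthesis, amino acid transport and tRNA charging, and in the stress genes DDIT3, ATF3, TRIB3 and CHAC1. Much of its control is translational, and only RNA was measured here.

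The response element was looked for in the promoters, to show which members carry the letters that ATF4 and its partners are known to bind near the start of transcription. RefSeq windows (GRCh38.p14) from 250 bases before to 50 bases after each start were found for all 10 members, in 18 windows. The element was searched as TGATGNAA on both strands, the cyclic AMP element as TGACGTCA and the ER stress element as CCAAT and CCACG 9 bases apart. TGATGNAA occurred in 3 of the 10 members, ATF3, ASNS and CHAC1. Among all 27305 genes with a window, 4.46% held it. The cyclic AMP element was in 0 of the 10 members (2.25% of all genes) and the ER stress element in 0 of the 10 (0.0916%). No matched motifs overlapped in the 3 windows, which are printed 5′ to 3′ on the strand of the gene with the element in capitals.
ATF3 (chr1:212565157-212565456, plus strand): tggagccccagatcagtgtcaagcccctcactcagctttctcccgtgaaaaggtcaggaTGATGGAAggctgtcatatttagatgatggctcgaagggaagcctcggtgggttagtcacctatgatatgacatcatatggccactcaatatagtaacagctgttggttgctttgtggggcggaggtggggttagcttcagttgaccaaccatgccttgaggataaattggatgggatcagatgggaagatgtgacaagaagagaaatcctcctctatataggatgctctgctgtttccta
ASNS (chr7:97872359-97872658, minus strand): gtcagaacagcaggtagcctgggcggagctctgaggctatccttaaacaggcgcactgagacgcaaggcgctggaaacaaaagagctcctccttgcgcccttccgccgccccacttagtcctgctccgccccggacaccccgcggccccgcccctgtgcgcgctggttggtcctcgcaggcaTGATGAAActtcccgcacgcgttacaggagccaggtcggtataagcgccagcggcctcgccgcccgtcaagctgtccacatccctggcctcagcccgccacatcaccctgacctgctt
CHAC1 (chr15:40953221-40953520, plus strand): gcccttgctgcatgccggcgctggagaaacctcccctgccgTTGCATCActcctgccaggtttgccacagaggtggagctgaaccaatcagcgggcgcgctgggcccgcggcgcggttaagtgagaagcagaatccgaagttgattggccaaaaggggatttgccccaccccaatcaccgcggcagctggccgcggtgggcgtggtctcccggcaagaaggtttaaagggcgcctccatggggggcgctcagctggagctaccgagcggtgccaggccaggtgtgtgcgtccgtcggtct
The ATF3 match lies 191 bases before the start, that of ASNS 68 bases before it, and that of CHAC1 209 bases before it on the opposite strand. A match is a description of the letters, and the absence of one says nothing about binding. ATF3 and ASNS each have another window, which held no match. Of these 3 genes, ASNS and CHAC1 fell with HOTAIR-N siRNA and ATF3 did not pass the test. Of the members without a match, ATF4, ATF5, DDIT3, MTHFD2 and PSAT1 fell, and CTH and TRIB3 rose. Whether a match goes with the change was not tested.

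The libraries held 32715361 to 35329948 expected counts with HOTAIR-N siRNA and 34715341 to 36578681 with control siRNA. HOTAIR stood at 2.26, 1.87 and 1.99 TPM (a level scaled for transcript length and library depth) with HOTAIR-N siRNA, against 4.19, 3.87 and 4.87 TPM with control siRNA. It fell by 1.04 on the log2 scale (SE 0.14, edgeR adjusted p = 1.32e-05). The lowest correlation between log2 levels of 2 libraries was 0.994 within a group and the highest between groups 0.977, and control library 1 stood furthest from its replicates. The epithelial keratins KRT8 and KRT18 were at 1334 TPM or more in every library, while the lung markers NKX2-1 and NAPSA were at 3.02 TPM or less and SFTPB at 0.05 TPM or less. Of these and the other epithelial and lung markers, 8 in all, 7 were tested, and 2 rose and 1 fell. Over all tested genes 57.5% passed, 28.7% higher and 28.8% lower, the share against which marker counts here are to be read. CDH1 rose by 1.07 and NKX2-1 by 1.02 on the log2 scale, and KRT18 fell by 0.71. The summed level of the 8 was 2922 to 3292 TPM with HOTAIR-N siRNA and 3716 to 4424 TPM with control siRNA. KRT18 averaged 1535 TPM with HOTAIR-N siRNA and 2592 TPM with control siRNA, and KRT8 1570 TPM with HOTAIR-N siRNA and 1505 TPM with control siRNA. Of 9 markers of fibroblasts, leukocytes and endothelium 5 were tested, and 2 rose, the fibroblast marker LUM and the endothelial marker VWF. The sum of the 9 was 11.3 to 12.3 TPM with HOTAIR-N siRNA and 8.81 to 11.3 TPM with control siRNA. The leukocyte marker CD68 made up most of it, at 7.13 to 9.32 TPM over all libraries, and LUM was at 1.31 to 2.87 TPM. VWF, PDGFRB and CDH5 were at 0.31 TPM or less. CD3E was at 0 in every library, and DCN, PTPRC and PECAM1 were at 0.02 TPM or less. The part of these marker levels in the results was not tested.

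With HOTAIR-N siRNA 7 of the 10 genes fell, 2 rose and ATF3 did not pass the test. The genes that fell were ATF5, CHAC1, ASNS, MTHFD2, DDIT3, PSAT1 and ATF4, and those that rose were CTH and TRIB3. A large share of the transcriptome differed between the siRNAs: 57.5% of the 15072 tested genes passed an adjusted p of 0.05, with 28.7% higher and 28.8% lower, so that a call alone is close to the common state of a gene in these data. All 10 members were tested. The levels of the 2 groups did not overlap for 9 of them, against 62.9% of all tested genes. The median log2 fold change of the 10 was -0.48, beside 0.0061 over all tested genes. The 10 genes were chosen with earlier results of these data known, so their difference from all tested genes is no independent evidence. Summed over the 10 genes, the level was 787, 790 and 797 TPM with HOTAIR-N siRNA, against 1109, 1116 and 1069 TPM with control siRNA. In bulk RNA fewer cells that express a gene and less RNA per cell cannot be told apart.

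**Figure D1:**
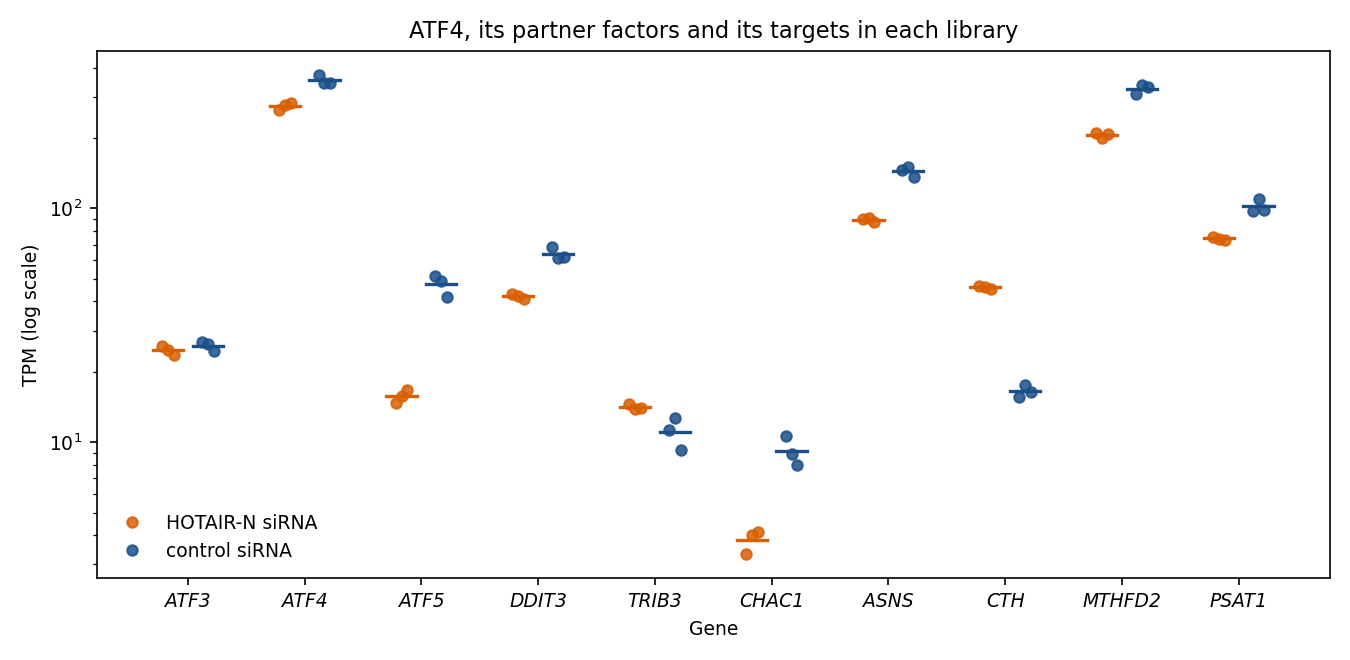
Level of each of the 10 genes in TPM (log axis), with 1 point per library and a line at the mean, HOTAIR-N siRNA left of control siRNA (n = 3 each). The groups overlap for ATF3; CTH and TRIB3 lie higher with HOTAIR-N siRNA and the other 7 genes lower.

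ATF4, the central factor, had 264, 278 and 284 TPM with HOTAIR-N siRNA, against 373, 342 and 343 TPM with control siRNA. Each HOTAIR-N siRNA library was below each control library, and control library 1 was the highest. ATF4 RNA fell by 0.31 on the log2 scale (SE 0.06, edgeR adjusted p = 4.17e-04), to 78.0% of the mean TPM with control siRNA. In size this change was larger than that of 53.1% of the tested genes. Without control library 1 the log2 fold change was -0.25 (edgeR adjusted p = 2.40e-04).

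ATF5, a paralog of ATF4 that is likewise translated through upstream reading frames under stress, changed most among the genes that fell. Its level was 14.8, 15.8 and 16.7 TPM with HOTAIR-N siRNA, against 51.3, 49.0 and 41.6 TPM with control siRNA. All 3 HOTAIR-N siRNA libraries lay well under the lowest control library. The log2 fold change was -1.52 (SE 0.08, edgeR adjusted p = 1.86e-09), which is 2.87-fold lower and larger in size than for 97.4% of tested genes.

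DDIT3 encodes CHOP, the bZIP factor that ATF4 induces in prolonged stress. It had 43.1, 42.2 and 40.8 TPM with HOTAIR-N siRNA and 68.3, 61.3 and 62.0 TPM with control siRNA. The groups were well apart, and DDIT3 fell by 0.55 on the log2 scale (SE 0.08, edgeR adjusted p = 2.67e-05). ATF3, a stress-induced repressor and activator of the same family, had 25.7, 24.7 and 23.7 TPM with HOTAIR-N siRNA and 26.8, 26.3 and 24.6 TPM with control siRNA. These ranges overlapped, and the log2 fold change of -0.01 (SE 0.07, edgeR adjusted p = 0.894) changed sign with the processing, lying between -0.07 and 0.04 over the alternatives without passing the test in any. The difference between the changes of DDIT3 and ATF3 was not tested.

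TRIB3 encodes a pseudokinase that ATF4 and CHOP induce and that restrains ATF4 activity. Its level was 14.6, 13.9 and 13.96 TPM with HOTAIR-N siRNA, against 11.3, 12.6 and 9.30 TPM with control siRNA. The HOTAIR-N siRNA libraries were close together and above all control libraries, which spread more, with a coefficient of variation of 2.67% with HOTAIR-N siRNA and 15.2% with control siRNA. TRIB3 rose by 0.39 on the log2 scale (SE 0.09, edgeR adjusted p = 0.00219). CHAC1 encodes an enzyme that breaks down glutathione and is induced through ATF4. It was the least abundant of the 10 genes, at 3.33, 4.03 and 4.13 TPM with HOTAIR-N siRNA, which rest on 80, 99 and 106 expected counts, and 10.7, 8.90 and 7.96 TPM with control siRNA, from 266, 211 and 204 expected counts. All HOTAIR-N siRNA libraries were below all control libraries, and CHAC1 fell by 1.21 on the log2 scale (SE 0.14, edgeR adjusted p = 2.77e-06), or 2.32-fold. Leaving out 1 library at a time gave -1.31 to -1.07.

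Of the 4 enzymes of amino acid and one-carbon metabolism 3 fell and 1 rose. ASNS, asparagine synthetase, makes asparagine from aspartate and glutamine and is a standard readout of ATF4 activity. It had 90.3, 90.6 and 87.9 TPM with HOTAIR-N siRNA and 146, 151 and 137 TPM with control siRNA, with no overlap, and fell by 0.64 on the log2 scale (SE 0.06, edgeR adjusted p = 1.74e-07). ASNS is the only member whose expected counts were not whole numbers in the gene tables, which RSEM gives where reads also match another gene. MTHFD2, the mitochondrial enzyme that oxidises one-carbon units on folate, had 209, 201 and 208 TPM with HOTAIR-N siRNA and 308, 337 and 329 TPM with control siRNA. All control libraries were above all HOTAIR-N siRNA libraries, and MTHFD2 fell by 0.62 on the log2 scale (SE 0.05, edgeR adjusted p = 1.02e-07). PSAT1, the aminotransferase of serine synthesis, had 75.7, 74.3 and 73.6 TPM with HOTAIR-N siRNA and 97.6, 110 and 98.0 TPM with control siRNA. The groups did not overlap, and PSAT1 fell by 0.40 on the log2 scale (SE 0.06, edgeR adjusted p = 2.13e-05).

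CTH, cystathionine gamma-lyase, which releases cysteine at the end of the transsulfuration pathway, moved the other way. Its level was 46.5, 46.1 and 45.4 TPM with HOTAIR-N siRNA, against 15.6, 17.5 and 16.4 TPM with control siRNA. The 3 HOTAIR-N siRNA libraries were nearly equal and each was far above the highest control library. CTH rose by 1.52 on the log2 scale (SE 0.06, edgeR adjusted p = 1.55e-10), which is 2.87-fold. By log2 fold change it ranked 169 from the top among the tested genes. In size, the rise of CTH and the fall of ATF5 were each larger than the change of 97.4% of tested genes.

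**Figure D2:**
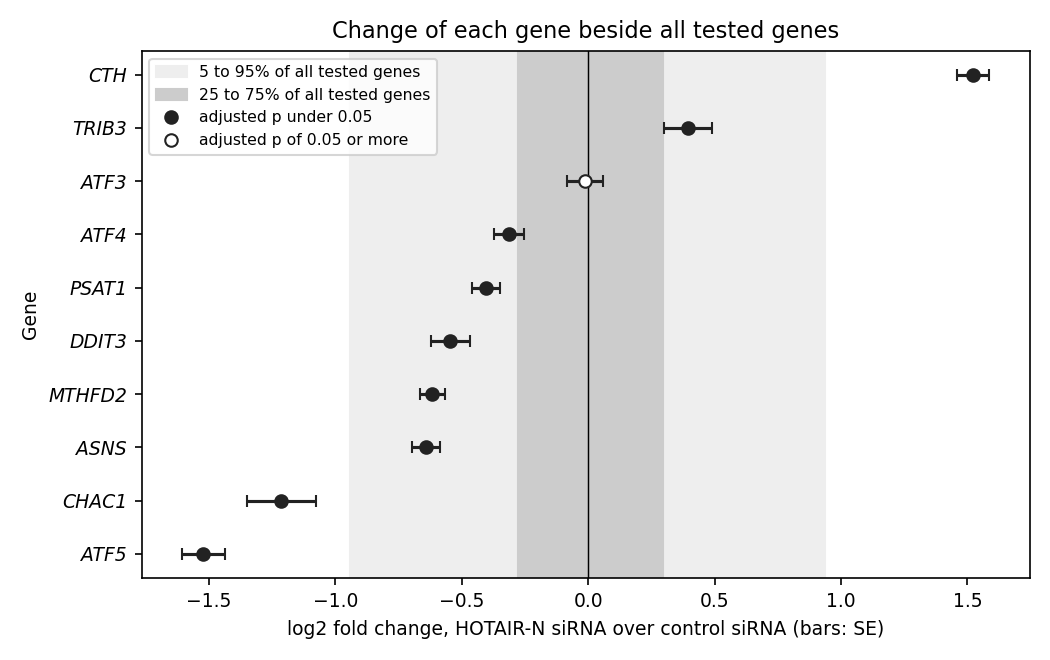
Log2 fold change of each gene, HOTAIR-N siRNA over control siRNA, with its SE (n = 3 each); filled points passed an adjusted p of 0.05. The dark and light bands hold the middle 50% and 90% of all tested genes, -0.28 to 0.30 and -0.94 to 0.94: CTH, CHAC1 and ATF5 lie outside the light band, ATF3 inside the dark one.

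The order of the levels can be read from TPM, which are per length. With HOTAIR-N siRNA it was ATF4, MTHFD2, ASNS, PSAT1, CTH, DDIT3, ATF3, ATF5, TRIB3 and CHAC1 from high to low, and the ranges of neighbours did not overlap. With control siRNA it was ATF4, MTHFD2, ASNS, PSAT1, DDIT3, ATF5, ATF3, CTH, TRIB3 and CHAC1, where the ranges of TRIB3 (9.30 to 12.6 TPM) and CHAC1 (7.96 to 10.7 TPM) overlapped. CTH thus held place 5 with HOTAIR-N siRNA and place 8 with control siRNA, and ATF5 place 8 with HOTAIR-N siRNA and place 6 with control siRNA. The coefficient of variation of TPM was smaller with HOTAIR-N siRNA than with control siRNA for all 10 genes, at 1.13 to 11.4% and 4.51 to 15.2%. The 10 genes were read in the same libraries, and the share of all tested genes with this order was not computed. Across genes the control libraries also differed more from one another. Chi-square per degree of freedom between the counts of paired libraries was 7.11 to 14.9 with control siRNA and 2.10 to 5.94 with HOTAIR-N siRNA.

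The isoform tables list 39 RefSeq isoforms of the 10 genes, of which 8 were at 0 in all libraries and 27 were tested. Of those, 1 rose, 8 fell and 18 did not pass (over all 32627 tested isoforms 19.5% passed, 9.39% higher and 10.1% lower). The isoform that rose was NM_001902 of CTH, at a log2 fold change of 1.55 (SE 0.05, edgeR adjusted p = 2.14e-04). Of ATF5, the isoform NM_001193646 had 10.1, 12.1 and 12.5 TPM with HOTAIR-N siRNA and 46.0, 43.2 and 35.5 TPM with control siRNA, and fell by 1.79 on the log2 scale (SE 0.14, edgeR adjusted p = 0.00126). The other abundant ATF5 isoform, NM_012068, had 4.37, 3.14 and 3.47 TPM with HOTAIR-N siRNA and 4.99, 4.67 and 4.39 TPM with control siRNA, with a log2 fold change of -0.30 (edgeR adjusted p = 0.343). NM_001193646 made up 73.3 ± 4.50% of ATF5 with HOTAIR-N siRNA and 87.6 ± 2.18% with control siRNA (SD, n = 3 each), while NM_012068 made up 23.4 ± 5.33% with HOTAIR-N siRNA and 9.93 ± 0.55% with control siRNA.

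MTHFD2 has a coding isoform, NM_006636, at 194, 188 and 195 TPM with HOTAIR-N siRNA and 270, 298 and 300 TPM with control siRNA, and a non-coding one, NR_027405, at 14.9, 12.6 and 12.5 TPM with HOTAIR-N siRNA and 38.5, 39.5 and 29.7 TPM with control siRNA. Both fell, by 0.53 (edgeR adjusted p = 0.00135) and by 1.37 (edgeR adjusted p = 0.00287) on the log2 scale. NR_027405 made up 6.47 ± 0.58% of MTHFD2 with HOTAIR-N siRNA and 11.1 ± 1.81% with control siRNA (SD, n = 3 each). In edgeR's test of isoform use, which asks whether the isoforms of a gene changed unequally, MTHFD2 passed (adjusted p = 0.0141) and the other 8 members with more than 1 tested isoform did not, with ATF5 at 0.870. Over all 7523 genes 4.13% passed. The call of MTHFD2 was lost without HOTAIR-N siRNA library 2 or 3 or control library 1 or 2 (adjusted p 0.0737 to 0.151), and without HOTAIR-N siRNA library 3 ASNS passed instead (0.0378). The limma test of isoform use, which passed 17.5% of the same genes, passed ATF5 (adjusted p = 0.00291), MTHFD2 (0.00310) and ASNS (0.0420).

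The other isoforms that fell each made up most of their gene. NM_182810 made up 97.7% of ATF4 with HOTAIR-N siRNA and 97.9% with control siRNA and had a log2 fold change of -0.30 (edgeR adjusted p = 0.0209). For DDIT3 it was NM_004083 (-0.52, edgeR adjusted p = 0.0224), and both this call and that of NM_182810 were lost without any 1 of the HOTAIR-N siRNA libraries or without control library 3. CHAC1 NM_024111 (-1.21, edgeR adjusted p = 0.00926), ASNS NM_001673 (-0.66, 0.00126) and PSAT1 NM_058179 (-0.37, 0.00746) fell too. The minor ASNS isoform NM_183356 had 5.65, 5.30 and 5.0 TPM with HOTAIR-N siRNA and 6.22, 6.25 and 4.48 TPM with control siRNA, which overlap. For ATF3 the leading isoforms NM_001674 and NM_001030287 had log2 fold changes of 0.40 (edgeR adjusted p = 0.160) and -0.25 (edgeR adjusted p = 0.575). Without 1 HOTAIR-N siRNA library or 1 control library these lay between 0.24 and 0.50 and between -0.54 and -0.09, the lower end of the first without HOTAIR-N siRNA library 2 and the ends of the second without HOTAIR-N siRNA libraries 1 and 2. How RSEM divided shared reads between isoforms adds an error that the tables do not state.

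**Figure D3:**
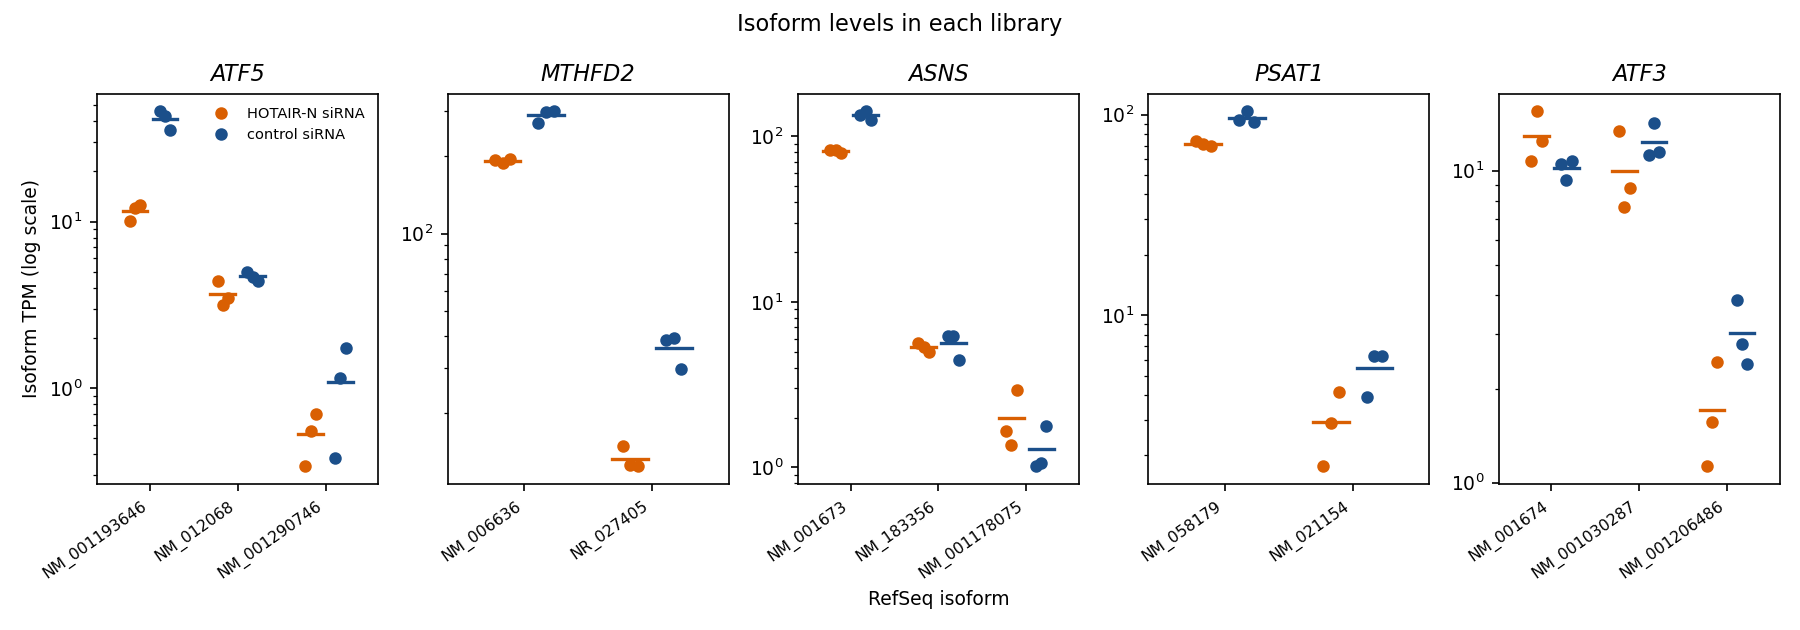
TPM (log axes) of the leading isoforms of ATF5, MTHFD2, ASNS, PSAT1 and ATF3 in each library, with a line at the mean, HOTAIR-N siRNA left of control siRNA (n = 3 each). The distance between the groups is wider for ATF5 NM_001193646 than for NM_012068, and for MTHFD2 NR_027405 than for NM_006636.

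The leaders of the factors were read from GENCODE 29 transcripts (GRCh38) that GENCODE links to the most abundant isoform. CHAC1 had no link. TRIB3, MTHFD2 and CTH are not given, because the linked transcript and the isoform in the deposited tables differ in length by more than 10% (for TRIB3, 2499 and 1980 nt). Upstream AUGs numbered 3 in ATF4, 2 in ATF5, 3 in DDIT3 and 1 in ATF3, and 0 in ASNS and PSAT1. Among 13219 genes with a linked transcript, to which the 10% length limit was not applied, 50.6% had at least 1. An upstream frame that runs past the start codon out of frame, the arrangement through which ATF4 is known to be held back in unstressed cells, was found in ATF4, ATF5, DDIT3 and ATF3 and in 16.6% of all these genes. The changes within these 4 factors ranged from -1.52 for ATF5 to -0.01 for ATF3 on the log2 scale.

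Genes that carry the word GACCAAT in the 3′ UTR had a lower median change in these data than the others. Their median log2 fold change was -0.38 over 706 genes (5.34% of those searched), -0.21 over 846 genes with the word in the coding sequence only, and 0.02 over 11667 genes with neither. The word was picked for that relation in these same libraries, so these medians are no independent evidence. It was not found in the 10 members: 0 of their 52 protein-coding GENCODE transcripts held GACCAAT or the overlapping ACCAATA on the sense strand. The sequences of the RefSeq isoforms in the deposited tables, among them the non-coding NR_027405, were not searched.

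The wider pathway was described by 11 lists, whose members moved in both directions. Of 15 genes of the eIF2 kinases, eIF2, its exchange factor and its phosphatases, 8 rose and 4 fell (median log2 fold change 0.18). PPP1R15B, a subunit that directs a phosphatase to eIF2, rose by 0.53, and the RNA-sensing kinase EIF2AK2 rose by 0.45. Among subunits of the exchange factor eIF2B, EIF2B3 fell by 0.56 and EIF2B5 rose by 0.36. Of 17 tested bZIP dimer partners 6 rose and 6 fell (median 0.14). Without control library 1, 9 rose and the median was 0.24, and without control library 2 or 3 it was 0.08. CEBPD averaged 16.5 ± 0.90 TPM with HOTAIR-N siRNA and 6.76 ± 0.49 TPM with control siRNA (log2 fold change 1.33), and JUNB 150 ± 13.1 TPM with HOTAIR-N siRNA and 74.9 ± 7.95 TPM with control siRNA (1.04). MAFK rose by 0.63, and the repressor JDP2, at 0.25 ± 0.03 TPM with HOTAIR-N siRNA and 0.90 ± 0.09 TPM with control siRNA, fell by 1.80. Of 14 other ATF and CREB factors 3 rose and 6 fell (median -0.11), with 4 that fell without HOTAIR-N siRNA library 2 or control library 2. ATF6B rose by 1.41 and CREM by 1.46, and ATF1 fell by 1.14 and CREB3L2 by 0.40.

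In serine, glycine and one-carbon metabolism beyond MTHFD2 and PSAT1, 5 of 17 genes rose and 7 fell (median -0.02). This median was -0.08 without HOTAIR-N siRNA library 1, -0.03 without library 2 and -0.07 without control library 1, and with unscaled library sizes it turned to 0.0034. MTHFD1L, the mitochondrial formate-producing enzyme, averaged 134 ± 3.17 TPM with HOTAIR-N siRNA and 207 ± 9.81 TPM with control siRNA. Its log2 fold change from counts was -0.90, larger than these TPM means give. TPM divide by a length, which RSEM put at 2038 to 2118 nt for this gene with HOTAIR-N siRNA and 2540 to 2580 nt with control siRNA. ALDH1L2 also fell, by 0.90, while the serine transporter SFXN1 rose by 0.55 and glycine decarboxylase, GLDC, by 0.54. Of 13 tested genes of methionine, transsulfuration and glutathione metabolism, the pathway of CTH, 6 rose and 4 fell (median 0.18), and without HOTAIR-N siRNA library 2 the counts were 4 and 2. GGCT, which acts on gamma-glutamyl peptides released from glutathione, averaged 231 ± 1.83 TPM with HOTAIR-N siRNA and 117 ± 7.67 TPM with control siRNA (1.06). CHAC2, the paralog of CHAC1, rose by 0.40, whereas CHAC1 fell. AHCY fell by 0.32 and GCLC, the catalytic subunit of glutathione synthesis, by 0.39. Of 12 tested genes of aspartate, glutamate, proline and branched-chain metabolism 2 rose and 5 fell (median -0.12), with 3 that rose without control library 1. ASRGL1 fell by 0.98, GOT1 by 0.39 and BCAT1 by 0.60, and GLUD1 rose by 0.31.

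Amino acid transporters known as ATF4 targets were split, with 3 of 11 higher and 3 lower (median -0.08). The median was -0.04 without HOTAIR-N siRNA library 2 and -0.0024 without control library 1, and 2 were lower without HOTAIR-N siRNA library 1 or control library 2. SLC7A11, the cystine importer, rose by 0.49 and SLC38A2 by 0.33, and SLC7A1 fell by 0.57 and SLC1A5 by 0.27. Cytosolic aminoacyl-tRNA synthetases, which charge tRNAs and several of which ATF4 is known to induce, had 8 lower and 0 higher of 13 (median -0.20). The share called was thus 61.5%, near the 57.5% of all tested genes, where 28.8% were lower and 28.7% higher. At an unadjusted p under 0.05 edgeR gave 9 lower and 0 higher, and DESeq2 and limma-voom each gave 8 lower and 0 higher after adjustment. Without HOTAIR-N siRNA library 1 or control library 1 the edgeR count of higher genes was 1. WARS averaged 61.7 ± 1.28 TPM with HOTAIR-N siRNA and 98.1 ± 2.67 TPM with control siRNA (-0.62), and YARS fell by 0.52, GARS by 0.41 and CARS by 0.36.

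Of 20 tested stress genes placed under ATF4 or CHOP 6 rose and 9 fell (median -0.08), with 4 that rose where control library 2 was left out and 3 where control library 3 was. Their median was -0.04 without control library 1 and -0.21 with no filter on low counts. The autophagy gene MAP1LC3B fell by 0.68, the mitochondrial enzyme PCK2 by 0.89 and VEGFA by 0.63, and the ER oxidase ERO1A rose by 0.69. In the XBP1 and ATF6 branches of the ER stress response 9 of 18 genes rose and 3 fell (median 0.16), with 2 that fell without HOTAIR-N siRNA library 1. The chaperone CALR rose by 0.58, PDIA6 by 0.32 and DNAJC3 by 0.48, while HSPA5 (BiP) averaged 363 ± 6.11 TPM with HOTAIR-N siRNA and 499 ± 17.5 TPM with control siRNA (-0.42). Among 7 genes of Tribbles paralogs and factors of ATF4 protein turnover 3 rose and 2 fell (median 0.14, or 0.09 without control library 1). FBXW11 and BTRC, the F-box proteins that target ATF4 for degradation, fell by 0.94 and 0.59, TRIB1 rose by 0.45 and the prolyl hydroxylase EGLN3 by 1.21, the last at 1.28 ± 0.10 TPM with HOTAIR-N siRNA and 0.57 ± 0.11 TPM with control siRNA. Fold changes here are on the log2 scale, each named gene passed the edgeR test, and means have their SD with n = 3 each. The share called ran from 54.5% for the transporters to 80.0% for the eIF2 list, beside 57.5% of all tested genes. The lists too were chosen with earlier results of these data known.

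**Figure D4:**
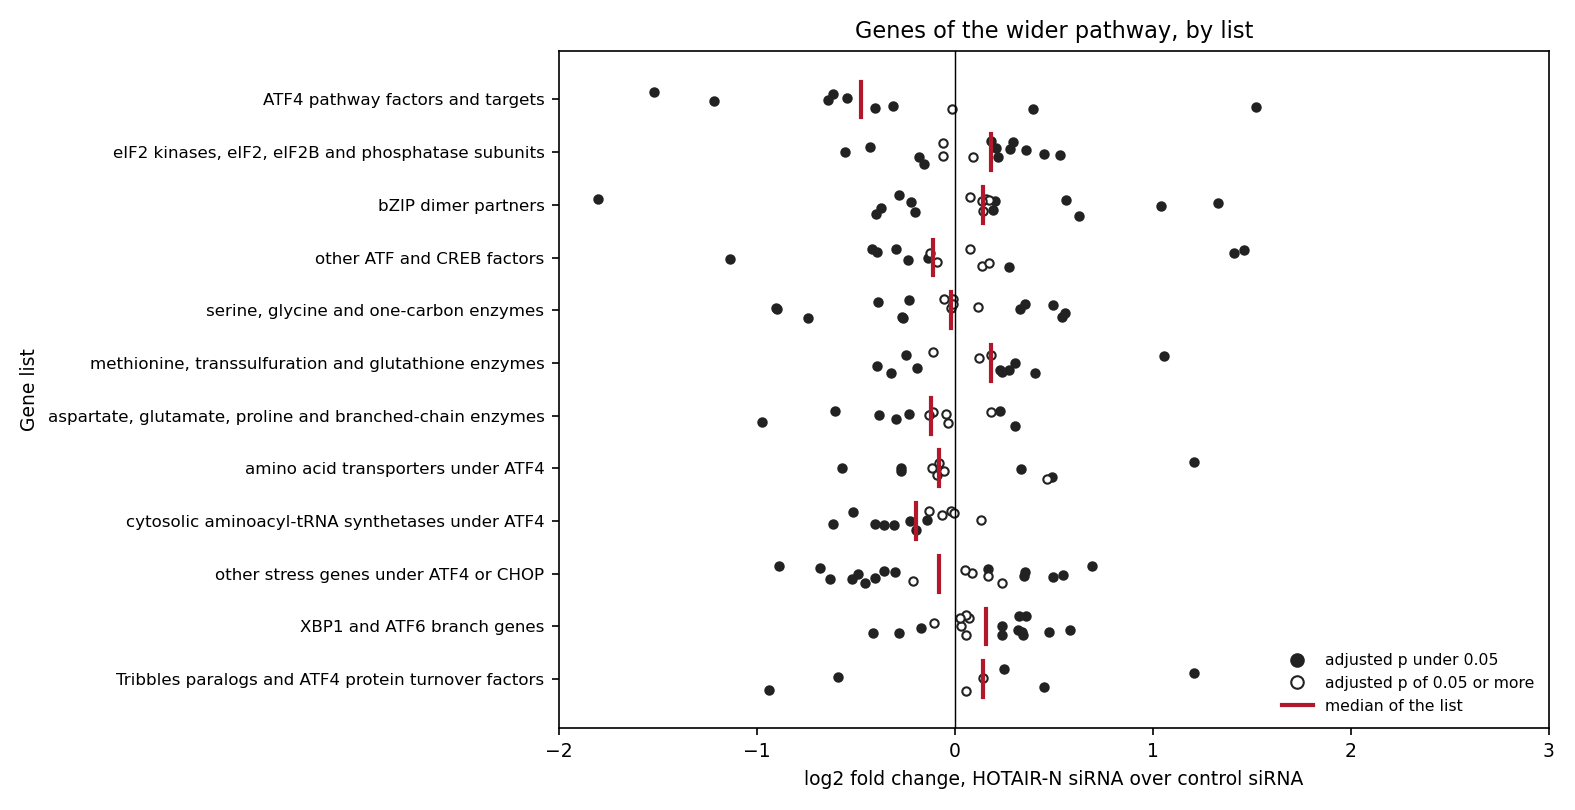
Log2 fold change of every tested gene of the 10 members and of the 11 lists, HOTAIR-N siRNA over control siRNA; filled points passed an adjusted p of 0.05 and the red line is the list's median. The synthetases have calls on the lower side and none on the higher side, and the other lists have calls on both.

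The genes whose log2 levels followed ATF4 most closely over the 6 libraries, outside the lists, were ERAL1 (Pearson r = 0.999), CAPNS1 (0.996) and CNTROB (0.996). They were taken from 5983 genes whose mean log2 CPM was 5 or more, of which 695 had r over 0.9, and all 6 points share the 2 groups. ERAL1, a mitochondrial ribosome assembly factor, had 95.4, 97.8 and 98.8 TPM with HOTAIR-N siRNA and 115, 113 and 110 TPM with control siRNA. Its log2 fold change was -0.17 (edgeR adjusted p = 0.0169), a call that was lost without any 1 of the HOTAIR-N siRNA libraries, where the adjusted p was up to 0.0621. CAPNS1, the small calpain subunit, had a log2 fold change of -0.22 (edgeR adjusted p = 0.00374) and CNTROB, a centriole protein, -0.35 (edgeR adjusted p = 2.67e-04).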

How the data were processed

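RNA-seq of 6 libraries of H23 cells was used, 3 per siRNA by the labels. Libraries were made with a stranded total RNA kit after ribosomal RNA depletion, per the labels' protocols. STAR 2.6.0c, RSEM 1.3.0 and build hg19 are named in the submitters' processing notes, with annotation release and strand setting not given in the sources used here, so genes that overlap others on either strand are uncertain. The authors deposited expected counts per gene and isoform, RSEM's estimates with shared reads divided between transcripts. Of these, 10.9% of gene values and 42.2% of isoform values were not whole. Deposited TPM values gave the levels, deposited FPKM values were not used in any test, and each isoform's percent share of its gene was used as the authors deposited it.

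Tests used rounded expected counts and edgeR 4.0.16 under R 4.3.3 (filterByExpr, TMM, robust quasi-likelihood test over all genes or isoforms, Benjamini-Hochberg adjusted p under 0.05). Log2 fold changes are HOTAIR-N siRNA over control siRNA. Isoform use was tested with edgeR's diffSpliceDGE. It was tried on simulated counts in which the leading isoform of some genes changed 2-fold or 4-fold. Of its calls there, 62.9% and 38.0% were unchanged genes, and it found 6.5% and 33.5% of the changed ones. With limma 3.58.1 diffSplice 11.3% and 10.9% of the calls were unchanged genes, and 23.5% and 65.5% of the changed ones were found. The limma test was therefore added after the data were seen. Alternatives were other scalings and filters, DESeq2 1.42.0, limma-voom, limma on log2(TPM + 1), the replicate number as a block and each library left out. No pairing of the libraries by replicate number was seen, which does not exclude a pairing. The members and lists were chosen with earlier results of these data known. Of each list the up to 4 called genes with the smallest p were named, with 2 symbols matched through RefSeq synonyms. The 3 genes most like ATF4 were taken by Pearson r among genes whose mean log2 CPM was 5 or more. Isoforms were named at a mean of at least 0.5 CPM. Among the members CHAC1 has the fewest counts, 80 to 266 in a library.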

Additional observations from a re-analysis of the deposited data

How the results depend on the processing

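The counts of 2 members that rose and 7 that fell were the same in every one of the alternatives run, and no called value reversed. Among the values that answer a comparison 747 kept their call or stayed within the limits set for a count or value, 11 became weaker, 4 stronger and 12 moved. Values that passed no test could change sign among the 747, as ATF3 did. Leaving out 1 library, the methionine and glutathione list had 2 to 5 genes lower, the synthetases 0 to 1 higher and the other stress genes 3 to 7 higher. The member isoforms that rose numbered 2 with DESeq2, and those that fell numbered 5 with the replicate block. With that block NM_182810 stood at -0.30 (adjusted p = 0.106), NM_004083 at -0.52 (0.0739) and NM_024111 at -1.20 (0.0771). Without 1 library NM_182810 ranged over -0.35 to -0.26 and NM_004083 over -0.57 to -0.46. DESeq2 called NM_001195057 at -0.90 and NM_001301188 at 0.40. NM_133436 ranged over -9.30 to -2.16 and NM_001178076 over -8.04 to -1.91 without 1 library. The values -9.30 and -8.04 come from leaving out the HOTAIR-N siRNA library that alone held reads of the isoform, so they are no measure of size. Isoform use passed in 0 members with no filter, in 0 with the replicate block, in 0 to 1 without 1 library and in 3 with limma diffSplice, which was chosen after seeing the data. The cause of these moves was not tested. With the block, 3988 genes rose and 3996 fell, against 4326 and 4346 without it. Deviations of same-numbered libraries correlated at -0.12, 0.02 and -0.04, within the -0.14 to 0.17 of differently numbered ones. No pairing by number was seen, but so few libraries cannot exclude a pairing. The block changed no member's call.

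With 3 libraries per group, 1 cell line, 1 time point and RNA only, ATF4 protein, its translation and its binding were not measured. Among the 10 genes CHAC1 rests on the fewest reads.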
